A study of Caenorhabditis elegans with 26 samples.

Results

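The effect of losing SDC-2 was set against the effect of losing DPY-27 in Caenorhabditis elegans XX embryos, gene by gene, as the change in sdc-2 embryos minus the change in dpy-27 embryos. The comparison uses 12 of the 26 Affymetrix arrays of the series, 3 in each of 4 groups, picked by genotype and plate type in the sample titles. The sdc-2 embryos carried the y93 allele and came from mothers fed bacteria that express sdc-2 double-stranded RNA. Their wild-type XX controls (N2) were fed bacteria with an insert-free plasmid, also on RNAi plates. The dpy-27 embryos carried the y57 allele, and both they and their wild-type XX controls came from worms grown on NG plates. Each array was hybridised with labelled RNA from embryos that had been released from many bleached adults, so every value averages over embryos of mixed stages and over all their cells. The comparison asks which genes changed on loss of SDC-2 but not of DPY-27, or the reverse, on the X chromosome and on autosomes.

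In C. elegans the dosage compensation complex assembles along the X chromosomes of hermaphrodite (XX) embryos and reduces transcription of X-linked genes, so that their total output matches that of XO males. SDC-2 is its XX-specific recruiter and binds X first, whereas DPY-27 is a condensin-like SMC subunit that needs SDC-2 to reach X. SDC-2 also has a separate role in sex determination, where it represses transcription of the autosomal male gene her-1, and DPY-27 is not known to be needed for that.

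Values are the deposited log2 expression values, and a value of 1 on this scale is a 2-fold difference. A positive difference means that a gene stood higher, relative to its own wild type, in sdc-2 than in dpy-27 embryos. A difference or an effect was called at a Benjamini-Hochberg adjusted p under 0.05 over 17118 genes in limma, from a fit with a mean for each of the 4 groups. Each gene is represented by its brightest probe set. Of 51 named genes with a difference called and further probe sets, 21 had the difference called with the same sign on all of them and 30 did not, and values of disagreeing sets are given beside the genes described below. Arrays within a group correlated across genes at 0.984 to 0.997. Values spread with a standard deviation of 2.00 to 2.06 on RNAi-plate arrays and of 2.41 to 2.45 on NG-plate arrays, so the plate types appear to be on different scales and each difference was also computed after joint quantile normalisation of the 12 arrays. Each of the 4 groups carries a date code of its own (5, 3, 1 and 2 in the order above), so date and group cannot be told apart. XO embryos of a single genotype, labelled TY2222 in the sample titles and all grown on egg plates, were profiled at date codes 5 and 2. Between these dates 6934 genes (40.5%) differed. When date code entered as a random block over all 26 arrays, the difference was called in 9 genes (0.0526%), among them her-1 and cnc-4.

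Sperm genes averaged below the median of the arrays in all 4 groups. The mean level over 32 sperm genes was 5.97 to 6.14 in sdc-2 arrays and 6.00 to 6.04 in their controls, and 4.80 to 4.83 in dpy-27 arrays and 4.90 to 4.96 in theirs. The sdc-2 probe set read 9.37, 9.90 and 9.76 in sdc-2 embryos, against 10.08, 9.93 and 10.09 in their wild type, and the difference was not called (log2 -0.36, adjusted p = 0.0665). A dimmer sdc-2 probe set that can match other transcripts fell by 1.37 on the log2 scale in sdc-2 embryos (adjusted p = 2.24e-06). For dpy-27 no difference was called between dpy-27 embryos and their wild type (log2 -0.06, adjusted p = 0.677), and a dimmer probe set rose by 0.81 there. The dpy-27 transcript therefore does not check the genotype label, and the sdc-2 transcript checks it on 1 of its 2 probe sets.

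The difference was called in 3263 genes (19.1%), 1277 positive (7.46%) and 1986 negative (11.6%). Of these, 2705 were also called after joint quantile normalisation (15.8% of all genes), and 2078 also kept the call when any 1 of the 12 arrays was left out (12.1%). The sdc-2 effect alone was called in 5038 genes (29.4%) and the dpy-27 effect alone in 6731 (39.3%). Across expressed genes the 2 effects ran in parallel, with Pearson's r of 0.626 over 1325 X-linked genes and 0.531 over 7208 autosomal genes. These correlations describe genes that share arrays within each effect, and genes are not independent replicates.

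**Figure D1:**
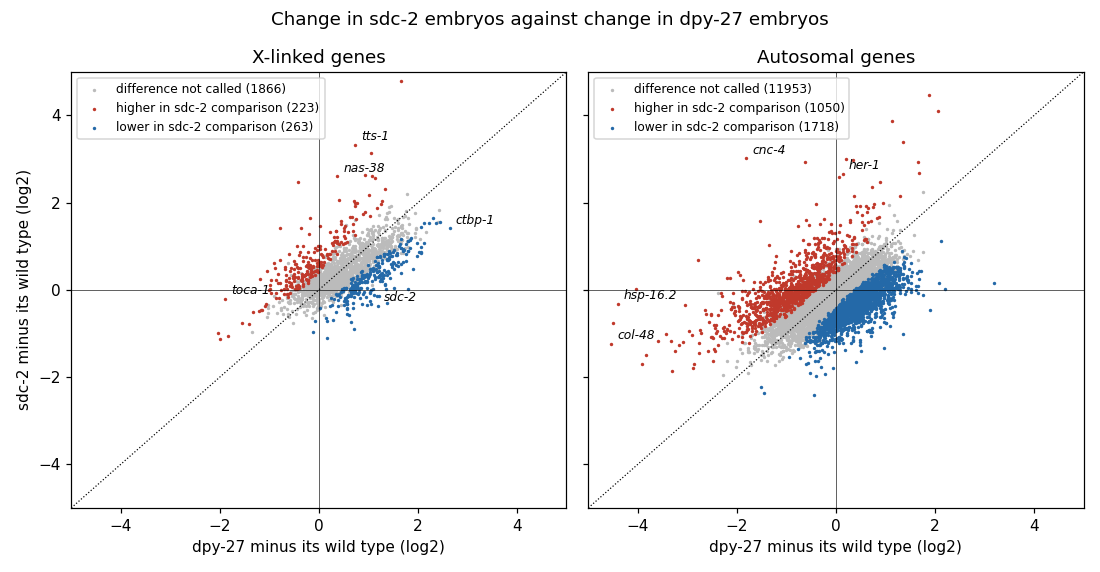
Each point is a gene, with its log2 change in dpy-27 embryos on the x axis and in sdc-2 embryos on the y axis, for X-linked genes (left) and autosomal genes (right). Coloured points are genes whose 2 changes differed at an adjusted p under 0.05, and the dotted line marks equal changes; her-1 and cnc-4 stand above it and hsp-16.2 lies far to the left.

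The X chromosome as a whole stood higher relative to autosomes in both mutants, and the sizes of the shift differed by less than the error. The X shift of an array takes each expressed gene relative to its mean in the matching wild type and subtracts the autosomal median of these values from the X-linked median. It was 0.64, 0.75 and 0.60 in sdc-2 arrays, against -0.02, 0.08 and -0.05 in their wild type. It was 0.63, 0.57 and 0.70 in dpy-27 arrays, against -0.06, 0.07 and -0.00 in theirs. Mutant and wild-type arrays did not overlap in either comparison. The shifts were 0.66 for sdc-2 and 0.63 for dpy-27, and differed by 0.03 (SE 0.08, exact permutation p = 0.6 over 20 splits, two-sided). When the plate types were scaled to the same standard deviation, the difference became 0.15 (exact p = 0.1, the smallest that 3 against 3 allows), and over the 5 alternative ways of computing it the p ran from 0.1 to 0.8. A p of this size does not show that the shifts were equal.

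**Figure D2:**
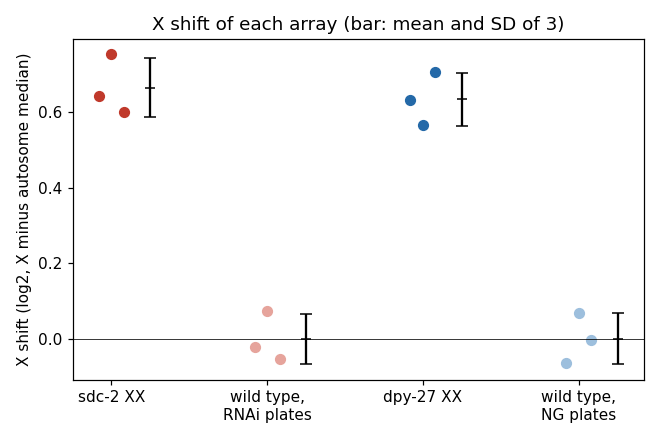
Points are the X shift (log2) of each array in the 4 groups, and the bar beside them is the mean and SD of 3 arrays. The sdc-2 and dpy-27 arrays both lie between 0.57 and 0.75, above all wild-type arrays.

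Most X-linked genes that rose in either mutant rose in both. Of 2352 X-linked genes, 930 rose in sdc-2 embryos, where 12.1% of all genes rose and 17.3% fell, and 1078 in dpy-27 embryos, where 21.2% rose and 18.1% fell. In all, 701 rose in both, which is 75.4% of the sdc-2 rises and 65.0% of the dpy-27 rises. For 548 of these 701 genes (78.2%) no difference in size was called. That share is near the 79.3% of all X-linked genes and 80.9% of all genes without a called difference. The median rise of the 701 genes was 0.82 in sdc-2 embryos and 0.97 in dpy-27 embryos, with a median difference of -0.16. After joint quantile normalisation 1061 X-linked genes rose in sdc-2 and 1028 in dpy-27 embryos, 772 of them in both (72.8% and 75.1%), so which mutant had more X-linked rises depended on the scaling; the median difference was -0.12. On autosomes 1141 genes rose in sdc-2 and 2537 in dpy-27 embryos, 719 of them in both, or 63% and 28.3% of each list.

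The difference was called for 486 X-linked genes (20.7% of them), 223 positive and 263 negative. On autosomes it was called for 2768 of 14721 genes (18.8%), 1050 positive and 1718 negative. The share of positive calls on X was 45.9% with deposited values and 54.6% after joint quantile normalisation (where 7.15% of all genes were positive, 10.2% negative and 17.4% either), so the balance of directions on X depends on the scaling. The balance on autosomes was 37.9% and 39%.

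Differing genes were sorted by which effects were called. On X, 76 genes rose in sdc-2 embryos alone, against 135 autosomal genes; these are 3.23% and 0.917% of each set. A fall in sdc-2 embryos alone was found for 8 X-linked and 572 autosomal genes (0.34% and 3.89%). A rise in dpy-27 embryos alone was found for 135 X-linked and 764 autosomal genes (5.74% and 5.19%), and a fall in dpy-27 embryos alone for 52 and 537 (2.21% and 3.65%). Effects of opposite sign, with the difference called, were found for 39 X-linked genes, 30 of them up in sdc-2 and 9 up in dpy-27, and for 269 autosomal genes, 70 and 199. Genes that changed the same way but by unequal amounts on X were mostly rises larger in dpy-27 embryos (108) or in sdc-2 embryos (45). After joint quantile normalisation the class risen in sdc-2 embryos alone held 105 X-linked and 213 autosomal genes, the class risen in dpy-27 embryos alone 89 and 651, and the class fallen in dpy-27 embryos alone 30 and 415. On X, the order of rises in sdc-2 alone and in dpy-27 alone (76 and 135) thus turned with the scaling (105 and 89). No chance level was computed for these class shares.

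**Figure D3:**
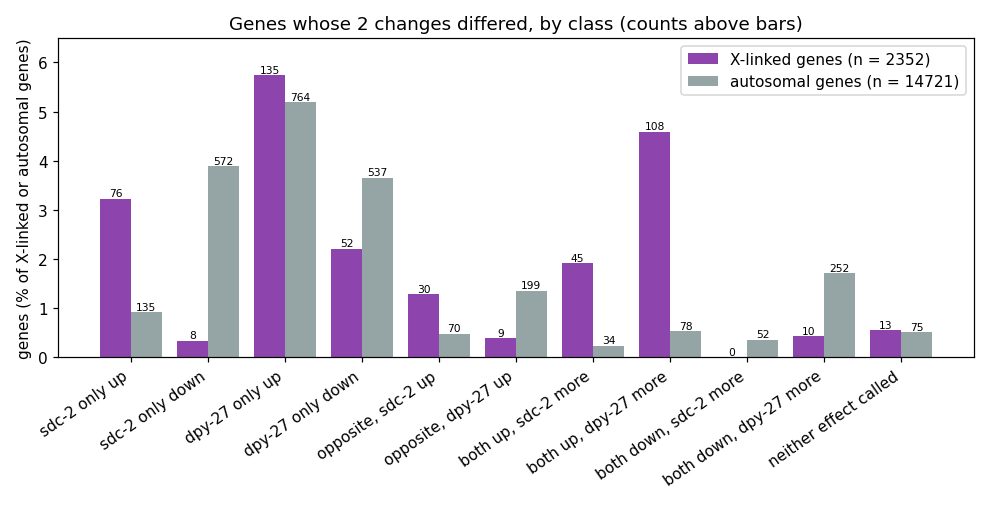
Bars give the percentage of X-linked (left bar of each pair) and of autosomal genes (right bar) whose difference was called, by class, with the number of genes above each bar. The class risen in sdc-2 embryos alone holds 3.23% of X-linked and 0.917% of autosomal genes, and the class fallen in sdc-2 embryos alone 0.34% and 3.89%.

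On chromosome V, her-1, which encodes the secreted protein that sets male fate, rose in sdc-2 embryos alone. Its level was 10.06, 9.99 and 10.05 in sdc-2 embryos, against 7.33, 7.37 and 7.39 in their wild type. It was 6.96, 7.16 and 7.15 in dpy-27 embryos, against 6.79, 6.98 and 7.08 in theirs. All sdc-2 arrays stood more than 2 log2 units above every other array, while the dpy-27 arrays overlapped their wild type. The sdc-2 effect was 2.66 and the dpy-27 effect 0.14 (adjusted p = 0.281), and the difference was 2.53 (SE 0.13, adjusted p = 6.06e-07, limma). In XO embryos her-1 differed by -0.04 between the 2 dates, and its difference was among the 9 called in the random-block fit.

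**Figure D4:**
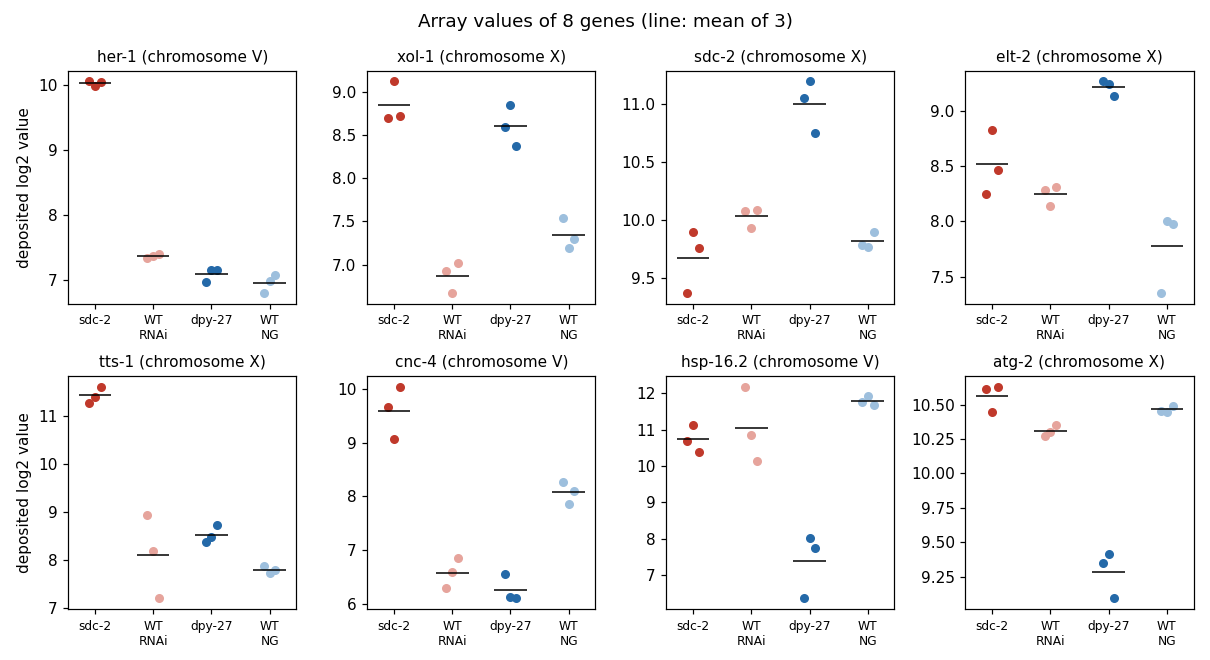
Points are the deposited log2 values of the 3 arrays of each group for 8 genes and lines are group means, each panel with its own y axis. The 3 sdc-2 points for her-1 lie near 10 and all other her-1 points near 7, and the 3 dpy-27 points for hsp-16.2 lie below 8.1 with all other groups above 10.

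Among X-linked genes that rose in sdc-2 embryos alone, the 4 largest differences under the naming rule were in tts-1, lron-7, spp-14 and ceh-21. The long non-coding RNA tts-1 read 11.27, 11.41 and 11.62 in sdc-2 embryos, against 8.95, 8.19 and 7.19 in their wild type, and 8.37, 8.47 and 8.73 in dpy-27 embryos, against 7.87, 7.71 and 7.78 in theirs. Its difference was 2.59 (SE 0.42, adjusted p = 0.00096), and its wild-type RNAi arrays spread widely. The leucine-rich repeat gene lron-7 read 10.56, 10.46 and 10.66 in sdc-2 embryos, against 9.26, 9.27 and 9.30, and 8.75, 8.58 and 8.91 in dpy-27 embryos, against 8.97, 8.94 and 8.93. It rose in every sdc-2 array while all dpy-27 arrays lay below their wild type, by an amount that was not called, and the difference was 1.49 (SE 0.14). The saposin-like gene spp-14 differed by 1.31 (SE 0.17), from an effect of 1.00 in sdc-2 and -0.31 in dpy-27 embryos. The homeobox gene ceh-21, a neighbour of the X signal gene ceh-39, differed by 1.11 (SE 0.21): it stood at 10.66, 10.91 and 10.86 in sdc-2 embryos, against 9.56, 9.37 and 9.51, and at 10.13, 10.19 and 9.53 in dpy-27 embryos, against 9.88, 9.58 and 9.73. On 2 dimmer ceh-21 probe sets the difference was called at 1.51 and 1.00, but on the first it also fell in dpy-27 embryos (adjusted p = 4.56e-05), and on the second the dpy-27 effect was -0.44, not called.

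The autosomal genes of this class named by the rule, after her-1, were cpr-4, rhy-1 and best-1. The cathepsin B-like protease gene cpr-4 read 9.61, 9.13 and 9.14 in sdc-2 embryos, against 7.68, 8.12 and 7.55, and 7.44, 7.04 and 6.91 in dpy-27 embryos, against 7.53, 7.46 and 7.40, a difference of 1.84 (SE 0.24). The hypoxia-pathway regulator rhy-1 differed by 1.62 (SE 0.36) and the bestrophin chloride channel gene best-1 by 1.47 (SE 0.27). The level of best-1 in NG-plate arrays was 4.56 to 5.00, near their lower quartile. In XO embryos, date code 5 minus date code 2 was 1.09 for cpr-4 and 1.11 for best-1, both called, and the part of the date in their differences was not tested.

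Only 8 X-linked genes fell in sdc-2 embryos alone. The receptor gene ddr-1 read 6.69, 6.51 and 6.46 in sdc-2 embryos, against 7.42, 7.87 and 7.70, while its dpy-27 arrays (6.63, 6.64 and 6.87) overlapped their wild type (6.03, 6.89 and 6.71). Its difference was -1.28 (SE 0.26). The transhydrogenase gene nnt-1, the gliotactin-related glit-1 and the thioredoxin-domain gene txdc-12.2 differed by -0.87, -0.86 and -0.86 (SE 0.19 to 0.22). On autosomes the rule named pptr-1, a regulatory subunit of phosphatase PP2A (difference -1.91, SE 0.28), the cap-binding subunit gene ncbp-2 (-1.69, SE 0.23), the junctophilin gene jph-1 (-1.62, SE 0.26) and fmo-2, a flavin-containing monooxygenase gene (-1.57, SE 0.24). After joint quantile normalisation, limma also called rises in dpy-27 embryos for pptr-1 (0.595, adjusted p = 0.0301) and jph-1 (0.541, adjusted p = 0.0442). Both genes then had effects of opposite sign and left this class. The gene ncbp-2 stood at 7.48, 6.92 and 7.75 in sdc-2 embryos, against 9.22, 9.23 and 9.47, and at 8.40, 8.62 and 8.35 in dpy-27 embryos, against 8.77, 8.69 and 8.59. For fmo-2, dpy-27 arrays read 4.349 to 4.605 and their wild type 4.761 to 5.002, near the lower quartile of NG-plate arrays. A fall in dpy-27 embryos is hard to see at that level. The XO date difference, date code 5 minus 2, was -1.15 for ncbp-2 and 1.03 for fmo-2, both called. It was not called for pptr-1 and jph-1. Of the 8 X-linked genes, 7 had an XO date difference called (87.5%, against 40.5% of all genes). For those named here it was called and negative: -0.53 for ddr-1, -0.46 for nnt-1, -0.69 for glit-1 and -1.38 for txdc-12.2. The part of the date in these differences was not tested.

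In the other direction, the X-linked genes that rose in dpy-27 embryos alone with the largest differences under the rule were sdc-2 itself, dylt-2, trpp-12 and elt-2. The sdc-2 transcript read 9.37, 9.90 and 9.76 in sdc-2 embryos, against 10.08, 9.93 and 10.09, and 11.06, 11.198 and 10.76 in dpy-27 embryos, against 9.79, 9.77 and 9.90. It rose 2.27-fold in dpy-27 embryos (log2 1.19, adjusted p = 1.26e-05), and the difference was -1.54 (SE 0.20). The sdc-2 embryos were themselves targeted by sdc-2 RNAi. The dynein light chain gene dylt-2 differed by -1.29 (SE 0.20) and trpp-12, which encodes a subunit of the TRAPP trafficking complex, by -1.24 (SE 0.16). A dimmer trpp-12 probe set gave -0.14 (adjusted p = 0.745) and called falls in both mutants (-0.62 in sdc-2 and -0.48 in dpy-27 embryos). The intestinal GATA factor gene elt-2 read 8.25, 8.83 and 8.47 in sdc-2 embryos, against 8.29, 8.14 and 8.31, and 9.27, 9.25 and 9.14 in dpy-27 embryos, against 7.35, 8.01 and 7.97. Its dpy-27 arrays did not overlap their wild type and its sdc-2 arrays did, and the difference was -1.17 (SE 0.24). A dimmer probe set of elt-2 gave -0.44 (adjusted p = 0.21), with -0.27 in dpy-27 embryos, not called, and a called -0.71 in sdc-2 embryos.

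Autosomal genes of the same class named by the rule were gtnt-14, ugt-26, nhr-136 and lin-31. The gene gtnt-14 read 6.81, 7.13 and 7.19 in sdc-2 embryos, against 7.13, 7.69 and 7.73, and 7.62, 7.63 and 7.83 in dpy-27 embryos, against 5.41, 6.16 and 5.80, a difference of -2.37 (SE 0.27). The UDP-glucuronosyltransferase gene ugt-26, the nuclear receptor gene nhr-136 and the forkhead gene lin-31 differed by -1.60 (SE 0.22), -1.56 (SE 0.28) and -1.52 (SE 0.21). For all 3 the sdc-2 effect lay between -0.04 and 0.10. A dimmer lin-31 probe set gave 0.18 (adjusted p = 0.618), with neither effect called. In XO embryos date code 5 minus date code 2 was called for gtnt-14 (0.412), nhr-136 (0.605) and lin-31 (0.725). For ugt-26 it was 1.33 and not called (adjusted p = 0.0573). In the limma fit to all 26 arrays the ugt-26 difference was not called (adjusted p = 0.357). The part of the date in these differences was not tested.

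Among X-linked genes that fell in dpy-27 embryos alone, the F-BAR endocytosis gene toca-1 read 7.01, 6.21 and 6.86 in sdc-2 embryos, against 7.09, 6.79 and 6.81, and 4.41, 4.47 and 4.77 in dpy-27 embryos, near the lower quartile of those arrays, against 6.33, 6.42 and 6.57. Its difference was 1.69 (SE 0.25), although a dimmer probe set gave 0.04 (adjusted p = 0.9). The autophagy gene atg-2 read 10.62, 10.45 and 10.63 in sdc-2 embryos, against 10.27, 10.30 and 10.36, and 9.35, 9.42 and 9.09 in dpy-27 embryos, against 10.45, 10.45 and 10.49. Its difference was 1.44 (SE 0.14), an X-linked gene that fell in dpy-27 embryos by 1.18 on the log2 scale. The paired-domain gene npax-2 and the ATP synthase subunit gene asg-2, both on X, differed by 0.95 (SE 0.18) and 0.91 (SE 0.13).

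The small heat-shock genes hsp-16.2 and hsp-16.41, on chromosome V, had the 2 largest differences among genes that fell in dpy-27 embryos alone. The hsp-16.2 level was 10.69, 11.12 and 10.38 in sdc-2 embryos, against 12.18, 10.85 and 10.13, and 6.36, 8.03 and 7.75 in dpy-27 embryos, against 11.75, 11.94 and 11.67. The dpy-27 arrays lay below all others, and the wild-type RNAi arrays spread widely. The difference was 4.08 (SE 0.64) for hsp-16.2 and 4.06 (SE 0.66) for hsp-16.41. The glutamine-rich gene pqn-94 and sam-10 differed by 2.38 (SE 0.46) and 1.87 (SE 0.21). A second probe set of sam-10 gave -0.26 (adjusted p = 0.49), with a called -0.57 in sdc-2 embryos and no call in dpy-27 embryos (-0.31). The XO date difference was called for hsp-16.2 (1.01), pqn-94 (0.82) and sam-10 (-1.05), and not for hsp-16.41 (0.75). In the limma fit to all 26 arrays the pqn-94 difference was not called (adjusted p = 0.0818). The part of the date in these differences was not tested.

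For 309 genes the effects had opposite signs and both were called. After joint quantile normalisation 65 of the 101 genes up in sdc-2 embryos and 145 of the 208 up in dpy-27 embryos stayed in their class. The antimicrobial caenacin gene cnc-4, induced in epidermis by infection and wounding, gave the largest difference of all genes tested. It read 9.66, 9.07 and 10.05 in sdc-2 embryos, against 6.29, 6.59 and 6.84, and 6.56, 6.12 and 6.10 in dpy-27 embryos, against 8.27, 7.86 and 8.10. All sdc-2 arrays were above their wild type and all dpy-27 arrays below theirs, and the difference was 4.83 (SE 0.31, adjusted p = 1.18e-06). The terminal nucleotidyltransferase gene tent-5 (2.38, SE 0.52), the galectin gene lec-6 (2.05, SE 0.24) and the zinc-finger gene klu-1 (1.81, SE 0.21) were the next autosomal genes under the rule. For tent-5 the sdc-2 arrays read 11.80, 12.22 and 11.74 and overlapped their wild type (11.88, 11.07 and 9.69). Its sdc-2 effect (1.04, adjusted p = 0.0459, limma) was not called after joint quantile normalisation (adjusted p = 0.0615). The dpy-27 effect of lec-6 was not called there either (adjusted p = 0.0543). A dimmer tent-5 set gave 2.92, with no sdc-2 effect called (0.18). The same XO date difference was called and positive for tent-5 (2.27), lec-6 (1.85) and klu-1. For cnc-4 it was also called, with a negative sign.

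On X the genes up in sdc-2 and down in dpy-27 embryos with the largest differences under the rule were the hedgehog-related wrt-9 (1.52, SE 0.23), tag-18 (1.46, SE 0.14), the MO25-related mop-25.1 (1.44, SE 0.22) and the nuclear receptor gene nhr-91 (1.17, SE 0.18). The values of tag-18 were 7.20, 7.07 and 7.14 in sdc-2 embryos, against 6.23, 6.03 and 6.11, and 5.85, 5.79 and 5.54 in dpy-27 embryos, against 6.11, 6.24 and 6.16. For mop-25.1, the wild-type RNAi arrays lay at 5.41 to 5.58, at or below their lower quartile. After joint quantile normalisation its dpy-27 effect was not called (adjusted p = 0.0966, limma). A second wrt-9 probe set gave -0.20 (adjusted p = 0.334) with neither effect called, and for mop-25.1 a dimmer probe set read 0.40 (adjusted p = 0.12). The reverse pattern on X had nhr-173 (-1.18, SE 0.20), acbp-3, which encodes an acyl-CoA binding protein (-1.11, SE 0.18), zig-6 (-0.98, SE 0.19) and svh-5 (-0.97, SE 0.15). On autosomes it had rhgf-3 (-2.06, SE 0.21), nhr-163 (-1.92, SE 0.20), the ground-like gene grl-11 (-1.76, SE 0.26) and the heparan sulfotransferase gene hst-3.1 (-1.72, SE 0.16). A dimmer rhgf-3 probe set differed by -0.61 but had called falls in both mutants (-1.09 in sdc-2 and -0.47 in dpy-27 embryos). The values of nhr-163 were 6.46, 6.58 and 6.69 in sdc-2 embryos, against 7.27, 7.44 and 7.49, and 7.93, 7.93 and 7.72 in dpy-27 embryos, against 6.41, 6.92 and 6.97.

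Genes that moved the same way in both mutants but by unequal amounts were also examined; those named here were chosen after their values were seen. The X-linked astacin protease gene nas-38 read 8.91, 9.15 and 8.74 in sdc-2 embryos, against 6.29, 6.53 and 6.17, and 6.01, 6.21 and 6.29 in dpy-27 embryos, against 5.85, 5.74 and 5.80. It rose by 2.60 in sdc-2 and by 0.37 in dpy-27 embryos, a difference of 2.23 (SE 0.17). The X-linked immunoglobulin-domain gene zig-3 rose by 2.64 and 0.93 and the branched-chain aminotransferase gene bcat-1 by 2.17 and 1.01. A dimmer bcat-1 set rose by 0.80 in sdc-2 embryos and fell by 0.35 in dpy-27 embryos. The corepressor gene ctbp-1, also on X, went the other way in size: it rose by 1.42 in sdc-2 and by 2.64 in dpy-27 embryos, a difference of -1.23 (SE 0.18). The other ctbp-1 probe sets did not show this: they gave 0.22 (adjusted p = 0.402), with a called -0.53 in dpy-27 embryos, and 0.17 (adjusted p = 0.556), with neither effect called. The autosomal collagen gene col-48 fell by 1.23 in sdc-2 embryos and fell by 4.54 in dpy-27 embryos.

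Of the 10 measured genes of the dosage compensation complex, 3 had a difference called, all negative, against 11.6% of all genes. Besides sdc-2 these were dpy-27, whose transcript read 10.84, 10.77 and 10.78 in sdc-2 embryos against 11.43, 11.30 and 11.35, and 10.55, 10.49 and 10.37 in dpy-27 embryos against 10.59, 10.41 and 10.58. The dpy-27 difference was -0.51 (SE 0.12), and -0.51 on the dimmer set, where it was not called. The condensin subunit gene dpy-26 differed by -0.66 (SE 0.20), and its call was lost when any of 7 arrays was left out. The condensin subunit genes dpy-28 and capg-1 rose in both mutants on their brightest sets, by 0.60 and 0.49 in sdc-2 and by 0.67 and 0.69 in dpy-27 embryos, and dpy-21, which encodes the histone H4K20 demethylase subunit, rose by 0.53 in sdc-2 embryos with no call in dpy-27 embryos (0.29), the difference not being called. A dimmer dpy-21 probe set, not ending in _s_at or _x_at, gave a called difference of 1.27 (adjusted p = 7.59e-05), with 0.13 in sdc-2 and a called -1.14 in dpy-27 embryos. Dimmer sets of dpy-28 and capg-1 had neither effect called. The recruiter genes sdc-1 and sdc-3, and also dpy-30 and mix-1, had no difference called, with differences of -0.36 to -0.05. The kept probe sets of dpy-27, dpy-26, sdc-3, dpy-21 and mix-1 can match other transcripts.

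Among 20 genes of sex determination and X counting, 3 had a positive difference and 1 a negative one. Besides her-1, the gene xol-1, the X-linked switch that sets male fate and shuts off SDC-2, read 8.70, 9.12 and 8.72 in sdc-2 embryos, against 6.92, 6.67 and 7.02, and 8.60, 8.85 and 8.37 in dpy-27 embryos, against 7.54, 7.19 and 7.29. It rose in both mutants, by 1.98 and 1.26. Its difference of 0.71 (SE 0.21, adjusted p = 0.0317) kept its call in 5 of 12 runs that leave out 1 array, and became -0.084 (adjusted p = 0.786) with a probe set not ending in _s_at or _x_at. The X signal genes ceh-39, fox-1 and sex-1, which repress xol-1 in XX embryos, rose in both mutants on their brightest probe sets: ceh-39 by 1.32 and 0.87, fox-1 by 1.15 and 0.72, and sex-1 by 0.52 and 0.45, in sdc-2 and dpy-27 embryos. None of these 3 had a difference called on these probe sets with deposited values; that of ceh-39 was 0.45 (adjusted p = 0.0511, and 0.045 after joint quantile normalisation). Dimmer probe sets gave called differences of 0.88 for ceh-39 (adjusted p = 0.00174), with an effect of -0.66 in dpy-27 embryos that was called, and of 1.25 for fox-1 (adjusted p = 0.000378), with -0.30 in dpy-27 embryos, not called. The remaining ceh-39 set had no dpy-27 effect called (0.14), so the rise of ceh-39 and fox-1 in dpy-27 embryos was seen on the brightest set alone. The phosphatase gene fem-2 stood at 9.86, 9.63 and 10.01 in sdc-2 embryos, against 9.39, 9.26 and 9.46, and at 9.77, 9.86 and 9.85 in dpy-27 embryos, against 10.38, 9.90 and 10.28, a difference of 0.82 (SE 0.18). A dimmer fem-2 probe set gave 1.67, with a called -1.97 in dpy-27 embryos and an uncalled -0.31 in sdc-2 embryos. The rise of fem-2 in sdc-2 embryos was thus not seen on it. The negative one, fem-1 (-0.53, SE 0.15), was not called after joint quantile normalisation, on a dimmer probe set (-0.05, adjusted p = 0.871) or when any of 3 arrays was left out. Downstream, tra-1 and tra-2 had no difference called (0.14 and -0.17), although a dimmer tra-2 probe set gave a called -0.63 (adjusted p = 0.00815).

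The 23 gene lists are described by counts and medians, beside a median difference of -0.02 over all genes. In whole embryos, fewer cells of a type and less RNA per cell cannot be told apart. Of the genes named within lists, act-5, cpr-6, dpy-17, egg-2, ges-1, hsp-1, hsp-90, ire-1, mex-3, myo-3, nhr-23, nlp-28, nlp-30, pos-1 and ubl-5 were chosen after their values were seen. Early maternal messages, RNAs loaded in oogenesis that are degraded as the embryo develops, had 13 of 28 positive and 0 negative differences in limma, with a median of 0.70, and 19 and 1 at an unadjusted p under 0.05. The list's mean level was 9.60 to 9.81 in sdc-2 arrays and 9.29 to 9.48 in their wild type, and 9.36 to 9.71 in dpy-27 arrays and 9.78 to 10.04 in theirs. The arrays did not overlap their wild type in either mutant, with 9 rises and 0 falls in sdc-2 and 5 rises and 13 falls in dpy-27. The translational regulator gene pos-1 rose by 0.53 in sdc-2 and fell by 0.32 in dpy-27 embryos, a difference of 0.85 (SE 0.17; adjusted p = 0.05 after joint quantile normalisation, where it was not called), and the eggshell gene egg-2 fell by 0.94 in dpy-27 embryos alone. The maturation gene oma-2 read 10.88, 10.19 and 10.70 in sdc-2 embryos, against 10.36, 10.18 and 10.22, and 9.67, 9.89 and 9.18 in dpy-27 embryos, against 11.36, 10.71 and 10.52, on a probe set that can match other transcripts. A dimmer oma-2 set, not ending in _s_at or _x_at, differed by 0.65, with a called 0.95 in sdc-2 and an uncalled 0.30 in dpy-27 embryos, so the fall in dpy-27 embryos was not seen on it. Between collection dates these messages also moved in wild-type embryos, with a median of 0.44 from date code 2 to 4, and the part of embryo stage in the difference was not tested.

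Germline genes had 8 of 32 positive and 0 negative differences (median 0.49), and 15 and 0 at an unadjusted p under 0.05 in limma. The P-granule gene pgl-1 moved the same way in both mutants: it fell by 0.76 in sdc-2 embryos and fell by 1.90 in dpy-27 embryos (difference 1.15, SE 0.19). The meiotic axis gene htp-3 read 8.35, 7.62 and 8.43 in sdc-2 embryos, against 7.63, 7.32 and 7.69, and 7.86, 8.09 and 7.82 in dpy-27 embryos, against 8.55, 8.07 and 8.38, and its call was lost without sdc-2 replicate A (adjusted p = 0.051) or dpy-27 replicate C (0.0513). The nos-2 and mex-3 entries are shared with the maternal list. In wild-type embryos the list's median moved by 0.62 from date code 2 to 4.

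Heat shock and unfolded protein genes had 13 of 27 positive and 2 negative differences (median 0.52). In dpy-27 embryos 16 of them fell and 2 rose, and in sdc-2 embryos 8 fell and 3 rose. The inducible chaperone gene hsp-70 read 7.37, 7.74 and 7.37 in sdc-2 embryos, against 9.86, 7.64 and 7.23, and 4.67, 4.67 and 4.45 in dpy-27 embryos, near their lower quartile, against 8.76, 9.35 and 9.21. The mitochondrial chaperone gene hsp-60 fell by 0.81 in sdc-2 embryos and fell by 2.47 in dpy-27 embryos (difference 1.65, SE 0.18). The Hsp70 gene hsp-1 fell by 0.99 in sdc-2 and fell by 1.87 in dpy-27 embryos, and hsp-90 fell by 0.80 in dpy-27 embryos alone, its difference not being called on a dimmer set (0.41, adjusted p = 0.0614). The stress sensor gene ire-1 rose by 0.51 in sdc-2 and by 1.07 in dpy-27 embryos, while a dimmer set fell by 0.70 in sdc-2 embryos with a difference of -1.02, and ubl-5, of the mitochondrial stress response, fell by 1.08 in sdc-2 embryos alone; these are the negative differences.

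Nuclear genes of oxidative phosphorylation had 14 of 36 positive and 0 negative differences (median 0.25), and 16 and 2 at an unadjusted p under 0.05 in limma. Falls were called in both mutants, with 17 falls and a median of -0.20 in sdc-2, and 25 falls and a median of -0.61 in dpy-27. The complex I gene nuo-5 read 10.02, 9.90 and 9.94 in sdc-2 embryos, against 10.26, 10.20 and 10.39, and 8.92, 8.82 and 8.62 in dpy-27 embryos, against 10.23, 10.54 and 10.57 (difference 1.33, SE 0.16). The cytochrome oxidase gene cox-5A fell by 0.69 in sdc-2 and fell by 1.47 in dpy-27 embryos, whereas a dimmer cox-5A set had neither effect called. Ribosomal protein genes had 8 positive and 2 negative differences of 64, with 34 falls in sdc-2 and 41 in dpy-27 embryos. Their median effect was -0.29 in both mutants, and -0.15 in sdc-2 and -0.16 in dpy-27 embryos after joint quantile normalisation. In XO embryos the median of the oxidative phosphorylation list differed by -0.38 between date codes 5 and 2.

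Intestinal genes had 9 of 18 positive and 3 negative differences (median 0.55). The aspartyl protease gene asp-6 read 11.32, 11.44 and 11.66 in sdc-2 embryos, against 10.71, 10.95 and 10.46, and 8.37, 7.86 and 7.93 in dpy-27 embryos, against 9.42, 9.12 and 9.23, a difference of 1.97 (SE 0.22). The protease gene asp-1 fell by 2.08 in dpy-27 embryos alone, and the gut actin gene act-5 fell by 1.07 there. The GATA factor gene elt-2, above, ran the opposite way, and so did the cysteine protease gene cpr-6 (-0.76) and the esterase gene ges-1 (-0.65). The median of the list differed by -0.95 between date codes 4 and 2 of wild-type embryos and by 0.39 between codes 5 and 2 of XO embryos. The same date differences were -2.56 and 2.12 for asp-6 and -1.32 and 0.79 for asp-1, all called. In the limma fit to all 26 arrays the asp-6 difference was not called (adjusted p = 0.303) and that of asp-1 was (0.0367). The part of the date in these differences was not tested.

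Epidermis and cuticle genes had 13 of 41 positive and 6 negative differences (median 0.18; 0.04 after joint quantile normalisation). The collagen genes col-48, col-77, dpy-13 and dpy-17 fell in both mutants and further in dpy-27 embryos. The level of col-48 was 9.41, 9.26 and 9.47 in sdc-2 embryos, against 10.76, 10.84 and 10.24, and 5.35, 5.28 and 4.91 in dpy-27 embryos, against 9.47, 9.89 and 9.79, a difference of 3.31 (SE 0.23). The difference was smaller for col-77 (2.42, SE 0.29), dpy-13 (1.67, SE 0.19) and dpy-17 (1.26). The epidermal GATA factor gene elt-3 and the nuclear receptor gene nhr-23 ran the other way, with differences of -0.77 and -0.68, and rose in dpy-27 embryos by 0.97 and 1.21. Neither rise was seen on a dimmer probe set of each gene (-0.14 for elt-3 and 0.003 for nhr-23 in dpy-27 embryos), and no difference was called on them. On these dimmer sets the sdc-2 effect was called for both genes, at -0.55 for elt-3 and 0.40 for nhr-23.

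Innate immunity genes had 12 of 33 positive and 2 negative differences (median 0.21). Besides cnc-4, the epidermal antimicrobial peptide gene nlp-29 read 9.53, 9.66 and 10.08 in sdc-2 embryos, against 6.56, 7.08 and 6.62, and 8.05, 7.39 and 7.52 in dpy-27 embryos, against 7.49, 7.28 and 7.60. All sdc-2 arrays stood above their wild type and the dpy-27 arrays overlapped theirs (difference 2.81, SE 0.27). The neighbouring peptide genes nlp-28 and nlp-30 differed by 1.35 and 1.53. These probe sets can match other transcripts of the family. The MAP kinase gene pmk-1 fell by 0.63 in sdc-2 and rose by 0.92 in dpy-27 embryos (difference -1.54, SE 0.17). Plate type differed between the 2 mutants, and the plasmid of the feeding bacteria between sdc-2 embryos and their control.

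Body wall muscle genes had 8 of 33 positive and 7 negative differences. The myosin gene unc-54 read 10.36, 10.48 and 10.47 in sdc-2 embryos, against 10.49, 10.60 and 10.39, and 7.54, 7.52 and 7.72 in dpy-27 embryos, against 9.18, 9.48 and 9.39. It fell in dpy-27 embryos alone (difference 1.70, SE 0.14), whereas another myosin gene, myo-3, fell further in sdc-2 embryos (-0.80). The brightest probe set of the giant filament gene unc-89 rose in dpy-27 embryos alone (difference -0.90, SE 0.20). Of its 4 other sets none rose there: 1 had a called difference of 1.09 and 3 had none called, so no direction is given for unc-89. The X-linked troponin gene tnt-2 rose by 0.96 in sdc-2 embryos alone (1.04, SE 0.14). Neurons (3 positive, 4 negative of 38), pharynx (2 and 1 of 17), programmed cell death (2 and 3 of 25), RNA interference machinery (5 and 3 of 41), fatty acid and glyoxylate metabolism (6 and 5 of 36) and cell division (7 and 5 of 52) had calls in both directions. Detoxification genes had 9 and 5 of 32, early zygotic regulators 1 and 4 of 22, histone enzymes acting on H4K20 and H3K27 2 and 0 of 13, yolk and adult genes 3 and 0 of 10, sperm genes 1 and 0 of 32, and the other condensin subunits 0 and 0 of 4 (also 0 and 0 at an unadjusted p under 0.05). For comparison, 7.46% of all genes were positive and 11.6% negative.

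**Figure D5:**
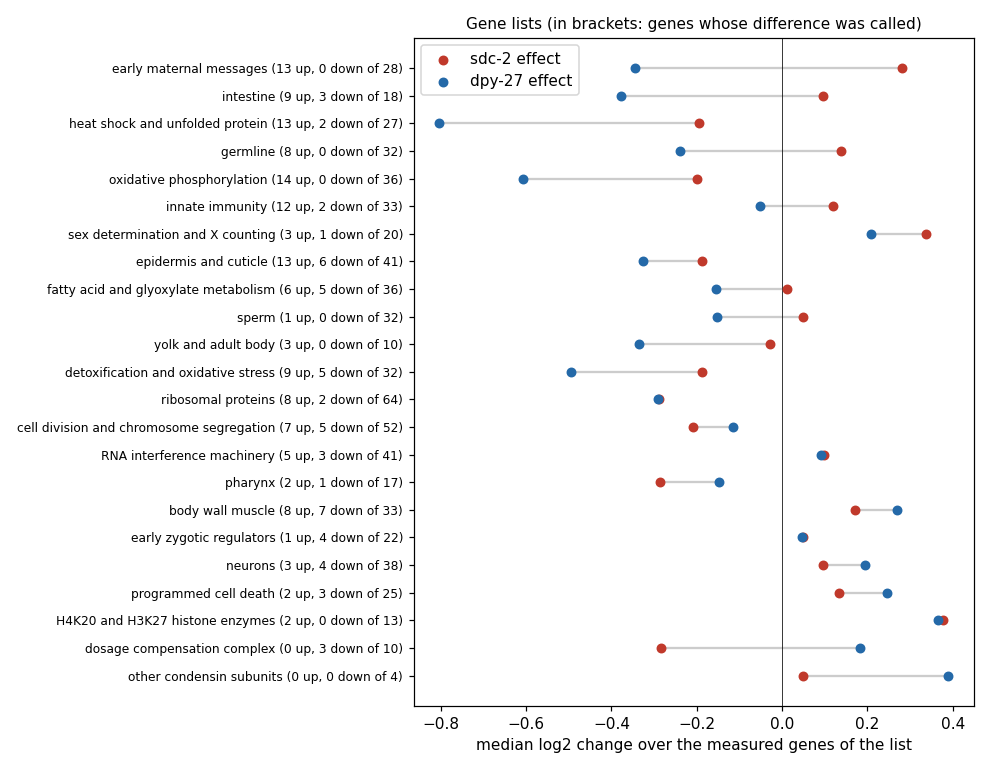
Rows are the 23 gene lists, ordered by the median difference, with the median log2 change over the measured genes of each list in sdc-2 embryos (red) and in dpy-27 embryos (blue), and in brackets the number of genes with a difference called in each direction. Early maternal messages lie to the right of 0 in sdc-2 embryos and to the left in dpy-27 embryos, and heat shock genes lie furthest left in dpy-27 embryos.

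Among the 3263 genes with a difference called, 1758 (53.9%) also differed between date codes 5 and 2 in XO embryos, against 40.5% of all genes. Of the 1758, the XO date difference had the same sign as the mutant difference in 630 genes and the opposite sign in 1128. Over all 6934 genes with an XO date difference called, it was the same in 2703 and opposite in 4231. Date codes 5 and 2 both enter the mutant difference with a plus sign, and codes 3 and 1 are not in the XO comparison. The date therefore sets no expected sign, and nothing is read from this split. In wild-type XX embryos on egg plates, 1783 of the 3263 (54.6%) also differed between date codes 4 and 2, against 6855 of all 17118 genes. The part of collection date in the differences was not tested, apart from the random-block fit. The 9 genes it called were chosen after their values were seen: her-1, cnc-4, sti-1, tsr-1, D1054.1, F59F5.3, K02D3.1, T03D8.6 and ZK1025.3. The co-chaperone gene sti-1 read 7.63, 7.02 and 7.37 in sdc-2 embryos, against 6.78, 6.49 and 6.72, and 5.13, 5.46 and 5.74 in dpy-27 embryos, against 8.57, 7.99 and 8.09, a difference of 3.45 (SE 0.27). On X, K02D3.1 rose in sdc-2 embryos alone (1.43, SE 0.14), and F59F5.3 rose in dpy-27 embryos alone (-1.78, SE 0.19) from a wild-type level of 4.03 to 4.27, below the lower quartile of its arrays.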

How the data were processed

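Embryonic RNA was measured on Affymetrix arrays, 26 in the series and 12 used here in 4 groups of 3, named in the sample titles. The authors deposited log2 values, 1 per probe set and array; RMA is the tool that the submitters' processing notes name, and its version is not stated there. Of 22548 probe sets, 20766 name 1 gene; for 2981 genes with several, the set with the highest mean was kept, which gave 17118 genes (2352 X-linked, 14721 autosomal). For 4236 genes the kept set has a name in _s_at or _x_at and can match other transcripts. Differences were fitted with limma 3.58.1 in R 4.3.3 (8 residual degrees of freedom), with 4 group means and no covariate, after a check on simulated data. No filter on low values was used; 8559 genes above the median level of 6.42 served for the X shift, compared by a two-sided exact permutation test. Arrays give no read depth, and 3 per group limit the precision. The series text calls the replicates biological. The alternatives were joint quantile normalisation, other scalings, other probe sets, a fit to all 26 arrays, the date code as a random block, a replicate block, array weights, a stricter threshold and leaving out each array. Named genes are the complex and sex-determination genes, up to 4 per class and chromosome type that were called with deposited and joint quantile values and without any 1 of 12 arrays, on gene-specific probe sets, and up to 4 per list called under both normalisations. The rule names further genes, mostly in the lists, that are not reported here. The members, lists and rules were chosen with earlier results of these data known.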

Additional observations from a re-analysis of the deposited data

Results flagged for a closer look

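The effects of the 2 genotypes differed by the test of the difference itself in 3263 genes. Among the genes chosen by class, those reported above from the classes of opposite sign are listed here by their difference on the log2 scale, sdc-2 effect minus dpy-27 effect. Up in sdc-2 and down in dpy-27 embryos on X were wrt-9 (1.52), tag-18 (1.46), mop-25.1 (1.44) and nhr-91 (1.17), and on autosomes cnc-4 (4.83), tent-5 (2.38), lec-6 (2.05) and klu-1 (1.81). Of these, mop-25.1, tent-5 and lec-6 left the class after joint quantile normalisation, where their effects were not both called. Down in sdc-2 and up in dpy-27 embryos on X were nhr-173 (-1.18), acbp-3 (-1.11), zig-6 (-0.98) and svh-5 (-0.97), and on autosomes rhgf-3 (-2.06), nhr-163 (-1.92), grl-11 (-1.76) and hst-3.1 (-1.72). Outside the 12 arrays, the 8 XO arrays of a single genotype differed between date codes 5 and 2 in 6934 genes.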

How the results depend on the processing

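The difference was called in 3263 genes as reported and in 2251 to 4166 under the other scalings, probe-set rules and array weights, and leaving out 1 array gave 2534 to 3791, the lowest without dpy-27 replicate C and the highest without sdc-2 replicate B. One fit to all 26 arrays called 1526 (X 217, autosomes 1305; sdc-2 only 385, dpy-27 only 851, opposite 151, same sign 97). With date code as random block, the difference was called in 9 (X 2, autosomes 7; sdc-2 only 4, dpy-27 only 5, opposite 0, same sign 0, the last pair being 71 and 23 at an unadjusted p under 0.05 in limma), the sdc-2 effect in 43 and the dpy-27 effect in 1063 genes, and ida-1 turned to -0.026. An adjusted p under 0.01 left 1645 (X 243, autosomes 1398; 410, 873, 106 and 205 in the same 4 classes). The same-sign class, 579 as reported, was 382 when _s_at and _x_at probe sets were dropped, where xol-1 turned to -0.084, and 977 with array weights. The difference of X shifts was 0.15 with plate types scaled to 1 SD, and -0.01 to 0.07 without 1 array. With a replicate block 3467 genes were called; replicate letters correlated at -0.33 to 0.33 in 18 pairs, 8 of them over 0.1, so the letters do not pair the samples. Signal near the floor limits dim genes.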
